A study of Homo sapiens with 6 samples.

Results

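The ETS transcription factors of human endothelial cells were followed in RNA-seq of HUVECs, primary endothelial cells of the umbilical vein grown for 3 passages. The genes are ERG, FLI1, ETS1, ETS2, ELK3, ELK4, ELF1, ELF2, ETV6 and GABPA, 10 of the 45372 Ensembl gene IDs in each deposited table. They were chosen by symbol for their place in the ETS family and not for how they behaved here, although earlier results of these data were known. The mimic cells were transfected with 50 nM of a miR-409-3p mimic, a synthetic form of the microRNA, and the control cells with 50 nM of a non-specific control RNA. Each group has 3 libraries, taken at 48 h. All cells are wild type and received the same lipid reagent, and the titles of both groups also call them not treated, with no word on which treatment is meant. The labels call the libraries biological replicates without saying whether they came from separate donors or cultures, and by the design text each RNA sample pooled 4 technical replicates. The p-values below therefore measure the spread between these libraries, which may be technical.

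ETS proteins share a winged-helix DNA-binding domain, the ETS domain, that recognises DNA with a GGAA core. Many endothelial enhancers and promoters carry such motifs, and several ETS factors are usually present in the same endothelial cell. They differ in what they do on DNA: ERG and FLI1 hold the endothelial programme in place, ETS1 and ETS2 are activators that respond to MAP kinase signalling, ELK3 and ELK4 join serum response factor on immediate early genes, ETV6 represses, and GABPA serves many housekeeping and mitochondrial genes.

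The cells carried the markers of their label. All 12 endothelial markers examined were above 100 TPM on average (a transcript abundance scaled by gene length and library total), and their summed level was 7399 to 7449 TPM in mimic libraries and 7110 to 7335 TPM in control libraries. MMRN1 was the most abundant of them, at 1175 ± 104 TPM in mimic and 1085 ± 48.6 TPM in control cells (mean ± SD, n = 3 each, as for every mean below). Leukocyte markers summed to 16.9 to 19.4 TPM in mimic and 16.9 to 20 TPM in control libraries, nearly all of it CD68 (17.7 ± 1.40 against 18.0 ± 1.59 TPM), and PTPRC, CD3E, ITGAM and TYROBP were at 0 in every library. Epithelial markers summed to 1.58 to 2.78 TPM in mimic and 1.87 to 2.72 TPM in control libraries, led by EPCAM (2.09 ± 0.509 against 2.14 ± 0.461 TPM), with 6 of 10 at 0 throughout. For smooth muscle the sums were 10.5 to 12.2 against 9.68 to 13.6 TPM, led by ACTA2 (8.62 ± 0.744 against 8.71 ± 1.28 TPM) and with MYOCD at 0 throughout, and for fibroblasts 13.2 to 16.9 against 13.3 to 16.6 TPM, led by COL1A2 (8.62 ± 0.920 against 8.03 ± 1.51 TPM). The summed levels of the groups overlapped in every one of these lists but the endothelial, where each mimic library lay above each control library. Taken singly, the groups overlapped in all 12 endothelial markers, of which 8 were higher and 4 lower on average in mimic cells. Depth estimated from the TPM steps was 29.8 to 35.8 M reads in mimic and 32.2 to 34.8 M in control libraries. On the first principal component, which held 26.7% of the variance, mimic library 2 lay at 22.3 and the other 5 libraries between -10.6 and 7.58. The second component held nearly as much, 24.2%. There mimic library 3 at -19.2 and control library 3 at 15.1 were the extremes, and mimic library 2 lay at 2.55.

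miR-409-3p lies on chromosome 14, and the mature RNA is shown because its seed decides which 3′ UTRs it can pair with. The sequence below is from RefSeq on GRCh38.p14 (chr14:101065346-101065367, plus strand), with the seed, bases 2 to 8, in capitals. The labels do not give the sequence of the mimic itself.
hsa-miR-409-3p: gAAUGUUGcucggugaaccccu
In an mRNA the seed pairs with CAACATT (a 7mer-m8 site), and weaker classes are AACATTA (7mer-A1) and AACATT (6mer), read on the mRNA strand only. In the longest annotated 3′ UTR of each gene (GENCODE 29), ELF2 held 1 and ELK4 2 sites of the 7mer-m8 class, and no ETS gene of the set held an 8mer (CAACATTA). These 3 sites are shown because they are the strongest matches in the set, each as 30 bases of GRCh38 3′ UTR exon on the mRNA strand, with the match in capitals.
ELF2, chr4:139057930-139057959, minus strand: agtttgtatattCAACATTtgaagtatatt
ELK4, chr1:205612697-205612726, minus strand: cgtccagtctgaCAACATTgtttcatcctg
ELK4, chr1:205610603-205610632, minus strand: tgaattgctcacCAACATTttagaaataca
That is 2 of 10 genes with a 7mer-m8 or 8mer site, against 13.3% of 11855 tested protein-coding genes with a 3′ UTR of at least 30 bases, and the 3′ UTR of ELK4, 8603 bases long, is far longer than the median of 1383 bases. ELK3 and GABPA each held a 7mer-A1 site, shown for comparison.
ELK3, chr12:96269615-96269644, plus strand: ataggtttcaaagAACATTAatgactttct
GABPA, chr21:25771270-25771299, plus strand: ttttaaagctaaaAACATTActtttagatc
ERG, FLI1, ELF1 and ETV6 held 6mer matches alone, 1, 4, 2 and 2 of them, and ETS1 and ETS2 held no match. Counting 6mers, 8 of the 10 genes had a match, against 45.4% of the searched genes. The 3′ UTR of every gene of the set, from 1391 bases in ELF1 to 8603 in ELK4, was longer than the median of 1383 bases. Longer 3′ UTRs have more room for a match, and these shares were not adjusted for length.

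The ETS genes differed widely in level, and their order by mean TPM was the same in all 6 libraries. It ran ELK3, ERG, ETS1, FLI1, ELF1, ETS2, GABPA, ELK4, ETV6 and ELF2. All 10 passed the filter of at least 1 TPM in at least 3 libraries, which 13680 genes passed in all, and among those ELK3 stood at the 97.0th percentile of level, ERG at the 93.4th and ELF2 at the 52.2nd. Neighbours in the order were separated over the 6 libraries except in 3 places. ETS1 and FLI1 overlapped in range, at 1.02 to 1.23 times within a library, as did GABPA and ELK4 (1.04 to 1.32 times) and ETV6 and ELF2 (1.05 to 1.16 times), although the first of each pair was the higher in 6 of 6 libraries. TPM divides reads by a gene length that is the same in every library, so the order also rests on that length. In control library 1 ELK4, with 12142 bases of exon, had an estimated 4103 reads. GABPA, with 5429 bases, had 2010 reads there and the higher TPM. ELK3 was 2.05 to 2.08 times ERG in mimic libraries and 1.90 to 2.09 times in control libraries, and by itself it made up 33.7% to 34.0% of the summed TPM of the 10 genes in mimic and 32.1% to 34.7% in control libraries.

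**Figure D1:**
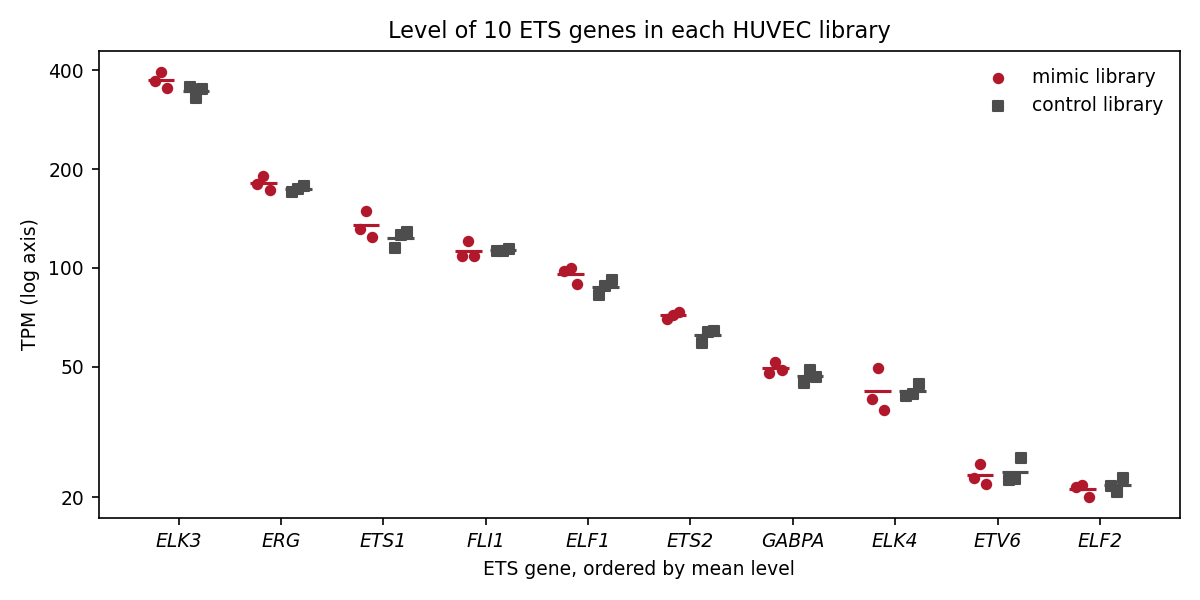
TPM (log axis) of the 10 ETS genes in each library, with mimic libraries as circles left of control libraries as squares and the group mean as a bar. ELK3 lies between 330.3 and 396 TPM and ELF2 between 20.1 and 22.9 TPM, and the values of mimic and control libraries separate in ETS2 alone.

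The question put to these genes was which of them differ when miR-409-3p is supplied. None of the 10 passed the test: by limma with Benjamini-Hochberg adjustment over all 13680 genes, 0 rose and 0 fell at an adjusted p under 0.05, where 0.431% of all tested genes passed, 0.132% higher and 0.300% lower in mimic cells. With no adjustment 1 gene had a p under 0.05, ETS2, which was higher. Of all tested genes 10.7% had such a p, 3.05% higher and 7.64% lower. The groups did not overlap in 1 of the 10, again ETS2, against 15.7% of all tested genes, 5.16% with mimic cells higher and 10.5% with mimic cells lower. Each fold change below is the log2(TPM + 1) of mimic cells less that of control cells. In the set they ran from -0.04 to 0.20, 6 above 0 and 4 below, with a median of 0.07. Over all tested genes 43.4% lay above 0 and the median was -0.0166. Among genes with a searched 3′ UTR, the median was -0.0165 with a 7mer-m8 or 8mer site and -0.0211 with no seed match. The difference between these medians was not tested. In bulk RNA, fewer cells that express a gene and less of its RNA per cell cannot be told apart.

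**Figure D2:**
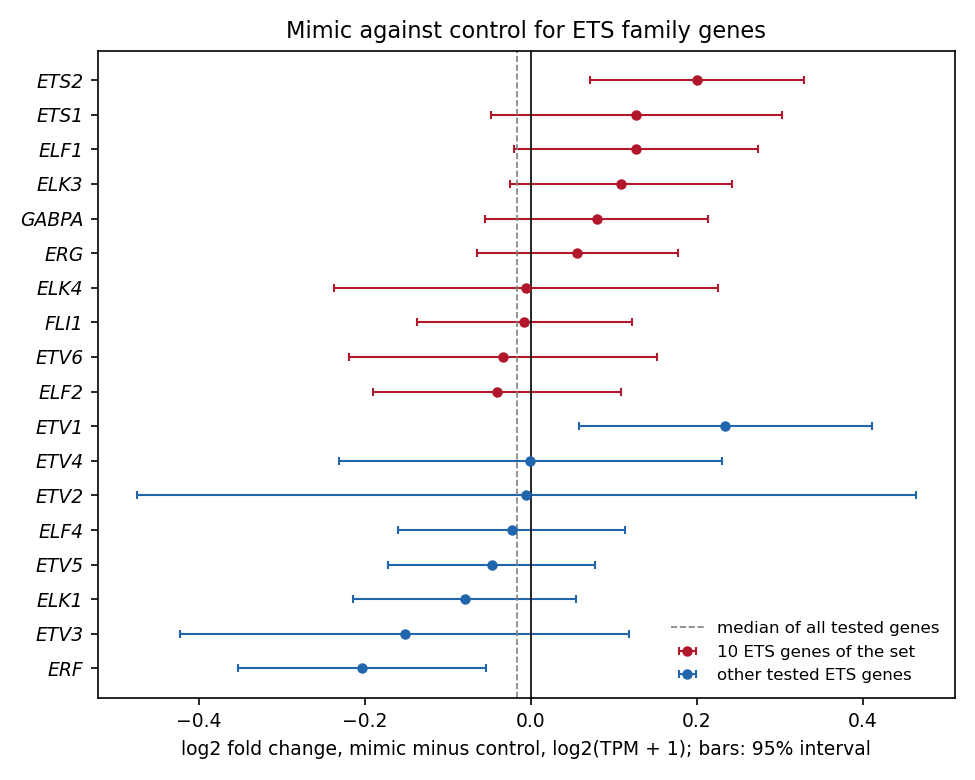
Log2 fold change (mimic minus control, on log2(TPM + 1)) of the 10 ETS genes and of the 8 other ETS family genes that were tested, with 95% intervals from limma; the dashed line is the median of all tested genes. The interval of ETS2 runs from 0.07 to 0.33 and the intervals of the other 9 genes of the set include 0.

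ERG and FLI1 are the lineage factors of the group. ERG keeps adult endothelium quiescent and its junctions closed and holds down inflammatory genes, and FLI1 is its nearest relative, shared with blood cells and platelets. ERG was at 180.0, 190.0 and 173 TPM in mimic libraries 1 to 3, against 170.2, 174 and 178 TPM in control libraries 1 to 3. The groups overlapped: mimic libraries 1 and 2 lay above all controls and mimic library 3 above the lowest of them. The fold change was 0.06 (SE 0.05, adjusted p = 0.839 by limma), with a 95% interval of 0.956 to 1.13 times the control level. FLI1 was at 109, 121 and 109 TPM in mimic and 113, 113 and 114 TPM in control libraries. Its control libraries lay almost on top of each other, and the mimic libraries lay on both sides of them. The fold change was -0.0080 (SE 0.06, adjusted p = 0.989 by limma; interval 0.909 to 1.09 times), and its sign turned under median-of-ratios scaling. The ratio of ERG to FLI1 was 1.575 to 1.66 in mimic libraries and 1.51 to 1.561 in control libraries, a narrow gap without overlap. Counting alone gave a coefficient of variation of up to 1.01% for ERG and 1.22% for FLI1. As a share of the summed TPM of the 10 genes, ERG was lower in mimic libraries. It made up 16.2% to 16.5% there and 16.6% to 16.9% in control libraries, also without overlap. The ratio was looked at after the values were seen, and neither quantity was tested. How often ratios of other gene pairs separate over all genes was not counted. FLI1 shares 162 bases of exon, 1.98% of its exon length, with SENCR, an antisense long noncoding RNA named here for that position, which was at 24.5, 25.7 and 29.7 TPM in mimic and 26.6, 21.0 and 22.3 TPM in control libraries. Whether counting used strand is not given in the sources used here.

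ETS1 and ETS2 are close relatives with a regulatory phosphorylation site for ERK kinases, and ETS1 is the member most tied to sprouting and invasion of endothelium. ETS2 was at 69.9, 71.9 and 73.5 TPM in mimic libraries, against 58.9, 63.9 and 64.3 TPM in control libraries. Each mimic library lay above each control library, and the mimic libraries were closer together than the controls. The means were 71.8 ± 1.80 TPM in mimic and 62.4 ± 3.05 TPM in control cells, a ratio of 1.15. The fold change of 0.20 (SE 0.06) had an unadjusted p of 0.00666, place 430 among 13680 genes, and an adjusted p of 0.211 by limma, so it did not pass. Its interval was 1.05 to 1.26 times the control level. ETS1 was at 131, 149 and 124 TPM in mimic and 115, 126 and 129 TPM in control libraries. Here 2 of 3 mimic libraries exceeded all controls, and mimic library 3 lay below 2 of the 3 controls. The fold change was 0.13 (SE 0.08, adjusted p = 0.659 by limma; interval 0.967 to 1.23 times), and it was 0.06 without mimic library 2. These genes sit in mixed pairs on the genome: ETS1 (chr11:128458761-128587558, minus strand) lies 99.0 kb from FLI1 (chr11:128686535-128813267, plus strand), and ETS2 (chr21:38805307-38824955, plus strand) lies 144 kb from ERG (chr21:38380027-38661780, minus strand), in GRCh38. Within each pair the fold changes were 0.13 and -0.0080, and 0.20 and 0.06.

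ELF1 and ELF2 bind the promoters of the angiopoietin receptor genes TIE1 and TEK, and ELF2 has been reported as a target of miR-409-3p in osteosarcoma cells. ELF2, with 1 site of the 7mer-m8 class printed above, was at 21.5, 21.7 and 20.1 TPM in mimic and 21.6, 20.7 and 22.9 TPM in control libraries. The groups overlapped throughout. The fold change was -0.04 (SE 0.07, adjusted p = 0.932 by limma), and the 95% interval was 0.876 to 1.08 times the control level. ELF1, the more abundant of the pair, was at 98.0, 100.2 and 89.3 TPM in mimic and 82.8, 88.3 and 91.8 TPM in control libraries. Mimic libraries 1 and 2 exceeded all controls and mimic library 3 did not. Its fold change was 0.13 (SE 0.06, adjusted p = 0.554 by limma, interval 0.986 to 1.21 times). ELF1 shares 167 bases of exon, 3.85% of its exon length, with WBP4 on the other strand, named for that position. WBP4 was at 72.4, 69.6 and 60.7 TPM in mimic and 71.4, 72.0 and 67.0 TPM in control libraries. The ratio of ELF1 to ELF2 was 4.45 to 4.61 in mimic libraries and 3.83 to 4.26 in control libraries, again without overlap, and was also looked at after the values were seen and not tested. The ratios of the other pairs overlapped, ETS1 to ETS2 at 1.69 to 2.07 in mimic and 1.95 to 2.00 in control libraries and ELK3 to ELK4 at 7.98 to 9.55 in mimic and 7.94 to 8.73 in control libraries.

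ELK3 and ELK4 are ternary complex factors, which sit beside serum response factor on serum response elements. ELK3 represses there until MAP kinases phosphorylate it. ELK3 was at 370.1, 396 and 353 TPM in mimic and 356, 330.3 and 351 TPM in control libraries. Mimic libraries 1 and 2 lay above all controls, mimic library 3 below the highest of them. The means were 373 ± 21.4 TPM in mimic and 346 ± 13.5 TPM in control cells, and the fold change was 0.11 (SE 0.06, adjusted p = 0.594 by limma; interval 0.983 to 1.18 times). ELK4, with 2 sites of the 7mer-m8 class, was at 39.9, 49.6 and 37.0 TPM in mimic and 40.8, 41.1 and 44.2 TPM in control libraries. Mimic library 2 was the highest of the 6 and mimic libraries 1 and 3 were the lowest. The mean was 42.2 ± 6.61 TPM in mimic and 42.0 ± 1.86 TPM in control cells, with a fold change of -0.0056 (SE 0.10, adjusted p = 0.996 by limma; interval 0.849 to 1.17 times), whose sign turned under median-of-ratios and quantile scaling. Without mimic library 2 it was -0.13 (adjusted p = 0.523 by limma). ELK4 had the widest spread of the 10 among mimic libraries, a coefficient of variation of 15.7%. Exons on the other strand also overlap these genes. ELK3 shares 4.50% of its exon length with AC008149.1, at most 4.18 TPM in any library. ELK4 shares 3.48% with MFSD4A, at most 0.838 TPM.

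ETV6 is a repressor that forms chains through its pointed domain, and GABPA is the DNA-binding subunit of the GABP complex, whose other subunit comes from GABPB1 or GABPB2. ETV6 was at 22.9, 25.2 and 22.0 TPM in mimic and 22.6, 22.8 and 26.4 TPM in control libraries. In each group 1 library stood above the other pair, and the groups overlapped. The fold change was -0.03 (SE 0.08, adjusted p = 0.961 by limma; interval 0.859 to 1.11 times), with the sign turned under quantile scaling. GABPA was at 47.9, 51.6 and 48.8 TPM in mimic and 44.7, 49.0 and 46.6 TPM in control libraries. Again the groups overlapped, with control library 2 above mimic libraries 1 and 3. The fold change was 0.08 (SE 0.06, adjusted p = 0.755 by limma; interval 0.962 to 1.16 times). Of GABPA's exon length 7.61%, 413 bases, overlaps exons of ATP5PF on the other strand, which was at 141, 136 and 128 TPM in mimic and 149, 132 and 139 TPM in control libraries.

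Mimic library 2 stood out in the set. It was the highest of the 3 mimic libraries in 9 of 10 genes, all but ETS2, and the highest of all 6 in 7 of 10. Over all tested genes it was the highest mimic library in 47.0% and the highest of 6 in 24.9%. Control library 1 was the lowest of 6 in 5 of the 10 genes and in 24.7% of all tested genes. Mimic library 3 was the lowest in 4 of the 10 and in 24.1% of all tested genes. The summed level of the 10 genes was 1090, 1175 and 1049 TPM in mimic and 1025, 1028 and 1067 TPM in control libraries, so that mimic library 2 was the highest and the groups overlapped. Without mimic library 2 the fold changes of the set ran from -0.13 to 0.20, and those of ERG, ETS1 and ELK3 were 0.02, 0.06 and 0.07. With each library left out in turn, fold changes that kept their sign ran from 0.020 to 0.089 for ERG, 0.055 to 0.18 for ETS1, 0.16 to 0.22 for ETS2, 0.065 to 0.15 for ELK3, 0.087 to 0.18 for ELF1, -0.073 to -0.0060 for ELF2 and 0.048 to 0.11 for GABPA. The part that the position of mimic library 2 on the first principal component has in these values was not tested.

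**Figure D3:**
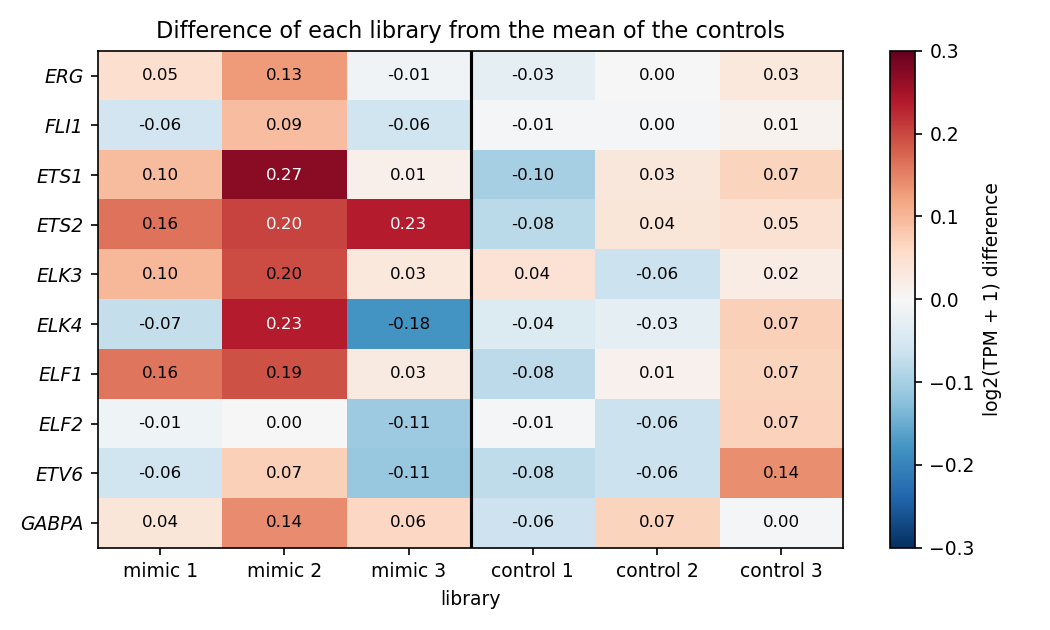
Difference of each library from the mean of the control libraries in log2(TPM + 1) for the 10 ETS genes, with mimic libraries left of the line and control libraries right of it. The mimic 2 column is the highest of the mimic columns in 9 of 10 rows, and ETS2 is the row with all mimic cells above all control cells.

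Counting error was smaller than the spread between libraries in most of these genes. The TPM steps imply 1175 to 16343 reads per gene and library for the 10 genes, exact to 0.002 of a read for ETS1, ELK4, ELF2, ETV6 and GABPA and approximate for the other 5, where the GENCODE 29 exon length gave no whole numbers. The coefficient of variation from counting alone was at most 2.92%, in ETV6, and 0.898% in ELK3. Among mimic libraries the observed coefficients ran from 2.50% (ETS2) to 15.7% (ELK4), and among controls from 0.573% (FLI1) to 8.95% (ETV6). For FLI1 in control libraries counting alone gave 1.11% to 1.15%, more than the observed value, so its closeness there is below counting error. These counting errors take no account of PCR copies, as reads carried no molecular identifiers.

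Outside the set, 19 further genes belong to the ETS family, and 8 of them passed the low-value filter. The 11 others were below 0.711 TPM or at that value in every library, among them the leukocyte factor SPI1 and the epithelial factors ELF3 and EHF, and ETV3L, ELF5, SPIC and EHF were at 0 throughout. The 10 genes of the set made up 79.2% to 81.7% of the summed TPM of the family in mimic and 77.5% to 79.4% in control libraries. Of the 8 tested, 0 rose and 0 fell by limma with Benjamini-Hochberg adjustment, and the median fold change was -0.03. An unadjusted p under 0.05 was reached by 1 higher and 1 lower gene, where 3.05% of all tested genes were higher and 7.64% lower with such a p. ERF, a repressor that competes with ETS activators for their sites, was at 73.9, 76.2 and 78.6 TPM in mimic and 80.9, 94.2 and 88.9 TPM in control libraries. All mimic libraries lay below all controls, and the fold change was -0.20 (SE 0.07, unadjusted p = 0.0134, adjusted p = 0.287 by limma). ETV1, of the PEA3 group of activators, was at 11.6, 13.2 and 11.7 TPM in mimic and 9.86, 10.5 and 10.1 TPM in control libraries, without overlap, with a fold change of 0.23 (SE 0.08, adjusted p = 0.301 by limma). ELK1, the third ternary complex factor, also did not overlap, at 29.7 ± 0.369 TPM in mimic and 31.5 ± 1.57 TPM in control cells. Its fold change was -0.08 (SE 0.06, adjusted p = 0.754 by limma). The groups thus did not overlap in 3 of the 8, against 15.7% of all tested genes. The other 5 overlapped: ETV4 had a fold change of -0.0007, ETV2 -0.0052, ELF4 -0.02, ETV5 -0.05 and ETV3 -0.15, and the first 3 of these signs turned under quantile scaling. With 1 library left out, ETV3 ran from -0.27 to -0.053, ETV5 from -0.075 to -0.032 and ELK1 from -0.10 to -0.040. In their longest 3′ UTR, ETV1 and ETV3 each held 1 site of the 8mer class, a class absent from the set. No other of the 8 genes held an 8mer or 7mer-m8 site. In the APPRIS-tagged or first-listed transcript ETV3 kept its 8mer and ETV1 held 1 6mer alone. Of these 2 genes ETV1 was higher and ETV3 lower on average in mimic cells.

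The reported targets and partners of these factors were taken as lists chosen from general knowledge, with earlier results of these data known. Of 37 endothelial genes described as activated by ETS factors, 36 were tested, 0 rose, 1 fell and 35 did not pass by limma with Benjamini-Hochberg adjustment. The median fold change was 0.01, and an unadjusted p under 0.05 was reached by 2 higher and 2 lower genes. Over all tested genes 0.300% fell, and 3.05% were higher and 7.64% lower with such a p. The gene that fell was DLL4, the Notch ligand of tip cells, at 91.7, 89.6 and 88.3 TPM in mimic and 112, 113 and 112.5 TPM in control libraries (fold change -0.32, SE 0.05, adjusted p = 0.0321 by limma). The call ended when any 1 library was left out, at an adjusted p of 0.0549 to 0.165 by limma. It also ended with no filter on low values (0.0533), with an untrended prior (0.0895) and with the replicate block (0.161). The fold change, which filters, priors and the block leave as it was, stayed between -0.34 and -0.30 under all 16 alternatives. CDH5, the junction cadherin and a defining ERG target, was at 816 ± 10.7 TPM in mimic and 831 ± 43.5 TPM in control cells, and VWF at 938 ± 21.0 and 899 ± 50.6 TPM. TEK and TIE1, the ELF targets, were at 103 ± 7.19 and 319 ± 17.8 TPM in mimic cells and at 99.3 ± 0.660 and 299 ± 13.0 TPM in control cells, and did not pass. These 4 are named for their roles beside the members and were chosen after their values were seen. Among 9 tested genes described as repressed by ERG or ELK3, 0 passed, 0 had an unadjusted p under 0.05 by limma, and the median was -0.0078. The genes of lowest p were CCL2, at 148 ± 21.5 TPM in mimic and 123 ± 17.4 TPM in control cells, and CAV1, at 1516 ± 30.3 and 1459 ± 26.8 TPM.

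Of 15 tested targets of serum response factor and the ternary complex factors, 2 rose, 0 fell and 13 did not pass by limma with Benjamini-Hochberg adjustment. An unadjusted p under 0.05 was reached by 6 higher and 0 lower genes, the groups did not overlap in 6, all higher, and the median fold change was 0.05. Over all tested genes 0.132% rose, 3.05% were higher with such a p, and 5.16% were higher without overlap. EGR1, an immediate early zinc-finger factor, was at 20.2, 18.3 and 24.0 TPM in mimic and 9.31, 10.4 and 11.6 TPM in control libraries (fold change 0.93, SE 0.11, adjusted p = 0.0143). ZFP36, an mRNA decay factor, was at 23.0, 19.8 and 21.1 TPM in mimic and 9.06, 9.95 and 10.5 TPM in control libraries, with a fold change of 1.04 (SE 0.08, adjusted p = 0.00507 by limma). In both genes every mimic library lay well above every control library. Of the members that bind these elements, ELK3 and ELK4 had fold changes of 0.11 and -0.0056, and SRF itself was at 54.0 ± 3.62 TPM in mimic and 55.0 ± 5.73 TPM in control cells. FOS, the classical target of the complex, was at 1.56 ± 0.420 TPM in mimic and 2.02 ± 0.438 TPM in control cells. SRF and FOS were added after their values were seen. The EGR1 call ended without control library 1 or 2 or mimic library 1, at adjusted p of 0.0823, 0.0699 and 0.0629, and with no filter (0.147) or an untrended prior (0.0524), while ZFP36 passed under all 16 alternatives.

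None of 16 genes described as GABP targets passed by limma, and the median was -0.06. An unadjusted p under 0.05 was reached by 2 genes, both lower, where 7.64% of all tested genes were lower with such a p. The 2 were NRF1, a factor for nuclear genes of mitochondria, at 12.0 ± 0.972 TPM in mimic and 14.3 ± 1.39 TPM in control cells, and TFB1M, a mitochondrial ribosomal RNA methyltransferase, at 15.2 ± 1.67 and 17.7 ± 0.101 TPM. GABPB1, the partner of GABPA, was at 52.2 ± 2.79 TPM in mimic and 49.3 ± 0.842 TPM in control cells, a fold change of 0.08 beside 0.08 for GABPA, and was named for its role after its value was seen. Among 31 tested cofactors, partners and regulators, 0 passed by limma, and the median was 0.02. An unadjusted p under 0.05 was reached by 2 higher and 3 lower genes, where 3.05% of all tested genes were higher and 7.64% lower with such a p. FOXO1, a forkhead factor of endothelial metabolism and quiescence, came nearest, at 70.7, 73.9 and 70.1 TPM in mimic and 53.7, 54.7 and 59.6 TPM in control libraries. The groups did not overlap, the fold change was 0.35 (SE 0.06), and the adjusted p of 0.0525 by limma was below the threshold under 5 of 16 other settings. GATA2, a zinc-finger factor that shares endothelial enhancers with ETS proteins, was at 31.9, 32.9 and 35.5 TPM in mimic and 39.0, 43.8 and 42.2 TPM in control libraries, without overlap (fold change -0.31, SE 0.07, adjusted p = 0.107 by limma).

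**Figure D4:**
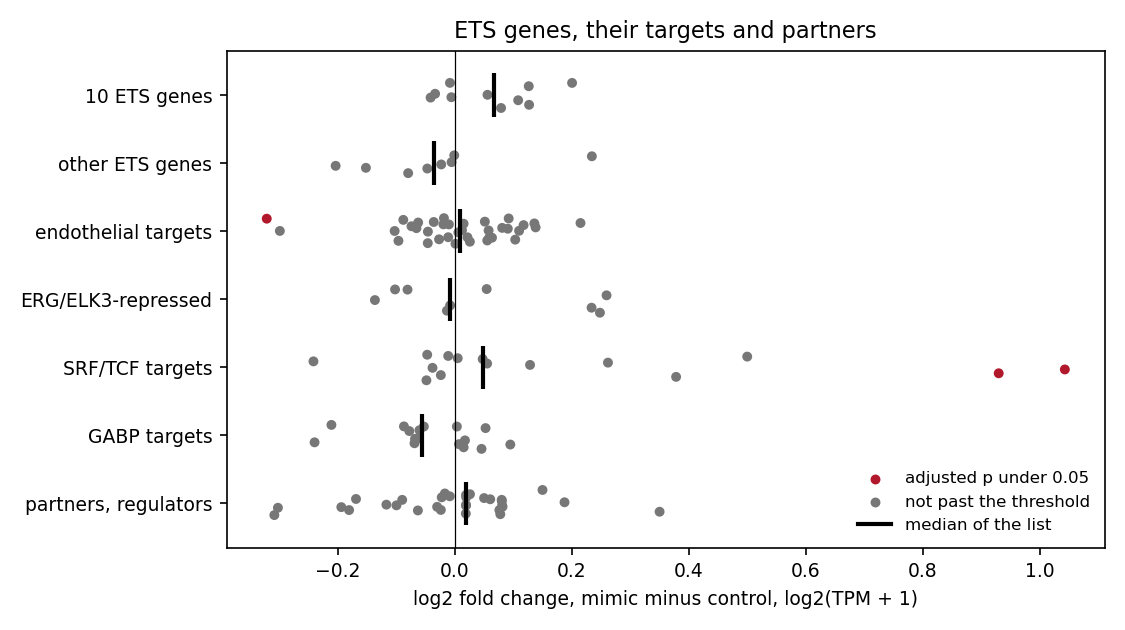
Log2 fold change (mimic minus control, on log2(TPM + 1)) of each tested gene in the ETS set and in the 6 lists, 1 point per gene, with the list median as a bar and genes at an adjusted p under 0.05 in red. The 3 red points are DLL4 at -0.32, EGR1 at 0.93 and ZFP36 at 1.04, and the list medians lie between -0.06 and 0.07.

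SLK and CAST were among the genes that lay closest to ERG over the 6 libraries. Their root mean square differences from it were 0.0063 and 0.012 in mean-centred log2(TPM + 1), among 8940 compared genes of at least 10 TPM on average. This measure counts how far values lie apart, so a gene that varies little can score as near without sharing the pattern. SLK was at 77.1, 81.8 and 74.3 TPM in mimic and 73.4, 74.7 and 77.3 TPM in control libraries. The median of all compared genes was 0.090. By this measure FLI1 was the nearest of the other ETS genes, at 0.041 and place 822, and ELK4 and ETS2 the farthest, both at 0.093. Likeness in pattern alone was not measured. With 6 libraries such a ranking describes these values and no more.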

How the data were processed

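RNA-seq was made from 3 mimic and 3 control HUVEC libraries per the labels' protocols, from enriched mRNA with 13 cycles of PCR, and read from 1 end for 75 cycles. The authors deposited 1 table of TPM values per library, per the file headers. As builds, the submitters' processing notes give hg38 and GRCh38.p13. The sources used here do not give the aligner, the counting program, the annotation, the use of strand or any filter.

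Symbols were found for 45102 of 45372 IDs, and positions and 3′ UTRs came from GENCODE 29 (GRCh38). The 13680 genes that reached 1 TPM in 3 or more libraries were fitted together on log2(TPM + 1) in limma 3.58.1 (R 4.3.3) with a trended prior and a term for group alone, with Benjamini-Hochberg adjustment at 0.05 over all of them. The fit was tested on simulated data. The pseudocount of 1 understates changes of low genes. TPM keeps no depth, so reads were estimated: TPM times exon length came out as a whole multiple of a single step, within 0.02, in 76.1% to 76.9% of genes with at most 20 reads per library. Python 3.11.15, numpy 2.4.6, pandas 2.3.3 and matplotlib 3.10.9 were used.

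The ETS genes and the lists were chosen with earlier results of these data known. Named genes are the 10 ETS genes, other tested ETS genes, up to 3 genes past the threshold or else the 2 with the lowest p from each list, the 3 nearest to ERG (1 of them is not reported here), the top marker of each cell type list, and the additions marked in the text. The alternatives were other pseudocounts (0.1, 0.5), filters, scalings and priors, the replicate block, protein-coding genes only, and leaving out each library.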

Additional observations from a re-analysis of the deposited data

How the results depend on the processing

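No ETS gene of the set passed the threshold under any of the 16 alternatives, with 0 higher and 0 lower in each, and 7 of 10 kept their sign in all 16 (ERG, ETS1, ETS2, ELK3, ELF1, ELF2 and GABPA). The lowest adjusted p was 0.0809, for ETS2 under median-of-ratios scaling. Of 160 member values, 149 stayed on their side in sign and call and 11 turned in sign. The filters, the priors and the replicate block leave a gene's fold change as it was, so no sign could turn under them. These counts of kept signs therefore overstate how far the signs were tried. Under median-of-ratios scaling FLI1 was at 0.0137, ELK4 at 0.0157 and ETV4 at 0.0207, and under quantile scaling ELK4 at 0.0173, ETV6 at 0.0042, ETV2 at 0.0038, ETV4 at 0.0144 and ELF4 at 0.0001. ETV4 was at 0.0009 with protein-coding genes only. With 1 library left out the ranges were -0.0585 to 0.0174 for FLI1, -0.1258 to 0.0817 for ELK4, -0.0864 to 0.0364 for ETV6, -0.1849 to 0.1177 for ETV2, -0.0949 to 0.1073 for ETV4 and -0.0605 to 0.0016 for ELF4. The cause was not tested.

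Over all genes, 18 rose and 41 fell. The filter moved these counts to 6 rises and 5 falls (none) and to 36 rises and 79 falls (at least 5 TPM), the prior to 10 rises and 10 falls (untrended) and to 37 rises and 82 falls (robust), and protein-coding genes alone gave 54 rises and 121 falls. Scaling gave 33 rises (median-of-ratios) and 34 rises (quantile). Leaving out 1 library gave 6 to 22 rises and 6 to 27 falls. Over the 6 lists, 2 genes rose and 1 fell. Dropping the filter or the trend left 1 rise and 0 falls, a filter of 5 TPM gave 4 rises, protein-coding genes alone gave 5 rises, and leaving out 1 library gave 1 to 3 rises and 0 falls. Counting 6mers, 8 ETS genes rather than 2 had a seed match, and the APPRIS-tagged or first-listed transcript again gave 2.

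Same-numbered libraries did not deviate together (correlations of deviations 0.031, -0.087 and -0.112), so the replicate numbers were not taken as pairs. With the replicate block the counts over all genes were 9 and 5, and over the lists 2 and 0. What depth limits is stated beside the members: counting error was below the spread between libraries in most of them.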
